A study of Mus musculus with 16 samples.

Results

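Endothelial transcripts that make or answer vasoactive signals were examined in primary mouse brain endothelial cells carrying human *APOE3* or *APOE4*. The 10 genes were taken by name from the count table, after its identifiers were matched to GENCODE vM21 symbols, as genes of nitric oxide, endothelin and prostanoid production and response. They are Nos3, Ddah1 and Ddah2 for nitric oxide, Edn1, Ece1 and Ednrb for endothelin, Ptgs1, Ptgs2 and Ptgis for prostanoids, and Ace, the angiotensin-converting enzyme. All 10 of 10 were found among the 39057 rows of the table, and all 10 passed the filter on low counts that left 12481 genes for testing. The comparison was *APOE4* against *APOE3*.

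Endothelial cells set the tone of the vessel wall by releasing short-range signals. Nitric oxide, made from arginine by endothelial nitric oxide synthase, and prostacyclin, made from arachidonic acid by cyclooxygenases and prostacyclin synthase, relax the neighbouring smooth muscle, whereas endothelin-1, cut from its precursor by endothelin-converting enzyme, is a strong constrictor. Angiotensin-converting enzyme on the endothelial surface makes angiotensin II and degrades bradykinin, a peptide that stimulates nitric oxide and prostacyclin release, and in brain these signals contribute to the control of blood flow.

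RNA sequencing covered 16 cultures. Each genotype of the targeted replacement strain gave 8 of them, 4 male and 4 female, at 21 to 28 days of age. In both lines the human gene is expressed from the mouse Apoe promoter in place of the mouse gene, so all groups carry a human APOE and differ in its isoform and sex. Each culture came from the cortex of 1 mouse in 1 well, was exposed to puromycin at 8 μg/ml to remove other cells, grown to confluence and left untreated. Libraries were poly-A selected, took 100 ng of RNA and 17 PCR cycles, and were read at 50 nt. The cultures had no blood flow and were selected for endothelial cells, not grown together with the smooth muscle on which these signals act. Transcripts of pericyte and smooth muscle markers were still counted (below), so some such cells may be present.

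Total counts were 12717847 to 18624417 per library, and pairwise Spearman correlations were 0.979 to 0.996. Human APOE was counted in every library, 15504 to 22318 reads with *APOE3* and 7672 to 14722 with *APOE4*, a count that does not tell the isoforms apart. All 23 of 23 brain endothelial markers passed the filter, with a summed level of 18494 to 19670 CPM (counts scaled to a common library size) in *APOE3* and 18234 to 19924 CPM in *APOE4* libraries, although Mfsd2a, a lipid transporter of the blood-brain barrier, was at only 3.46 CPM in *APOE3*. With *APOE4*, edgeR called Emcn higher (log2 fold change 0.14, adjusted p = 0.0106) and Slco1c1 lower (-0.31, adjusted p = 0.0472) among these 23, against 12.8% of all genes called. The estimates of 17 markers were negative and those of 6 positive. Pericyte and smooth muscle markers summed to 189 to 356 CPM and 224 to 341 CPM, and fibroblast markers to 16.7 to 73.6 CPM and 11.9 to 92.2 CPM, with 0 of their 13 tested genes called by edgeR. Their estimates leaned higher with *APOE4*. Of the tested pericyte and smooth muscle markers 7 were positive and 1 negative, with a median log2 fold change of 0.22. Of the tested fibroblast markers 4 were positive and 1 negative, with a median of 0.27. Astrocyte markers summed to 35.4 to 45.3 CPM over all libraries, mostly from Gja1, a connexin gene that endothelial cells also express (mean 33.5 CPM in *APOE3* and 36.6 CPM in *APOE4*), while Gfap, Aqp4 and Slc1a2 had at most 6, 2 and 2 reads per library. Microglial markers summed to 7.05 to 10.6 CPM with P2ry12, C1qa and Itgam at 0 in every library, oligodendrocyte markers to at most 2.43 CPM, neuronal markers to at most 4.11 CPM and red blood cell markers to at most 0.124 CPM. In bulk RNA, fewer cells of a type and less RNA per cell cannot be told apart.

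Of the 10 genes, 3 were higher in *APOE4* than *APOE3* brain endothelial cells, namely Ece1, Ace and Ddah1, and 0 were lower. These were called by edgeR's quasi-likelihood F test with genotype as the single term, at a Benjamini-Hochberg adjusted p under 0.05 over all 12481 genes. By the same test 12.8% of all genes were called, 6.71% higher and 6.09% lower. At an unadjusted p under 0.05, 5 of the 10 genes passed, with Nos3 and Ednrb added, against 29.0% of all genes. The median log2 fold change of the 10 genes was 0.03, and that of all genes tested was -2.2e-04. The estimates lay on both sides of 0, although none of those below 0 passed the threshold, and the account below takes the genes by pathway. A difference missing the threshold does not show that the genotypes were alike, and the 95% interval is given for each such gene.

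**Figure D1:**
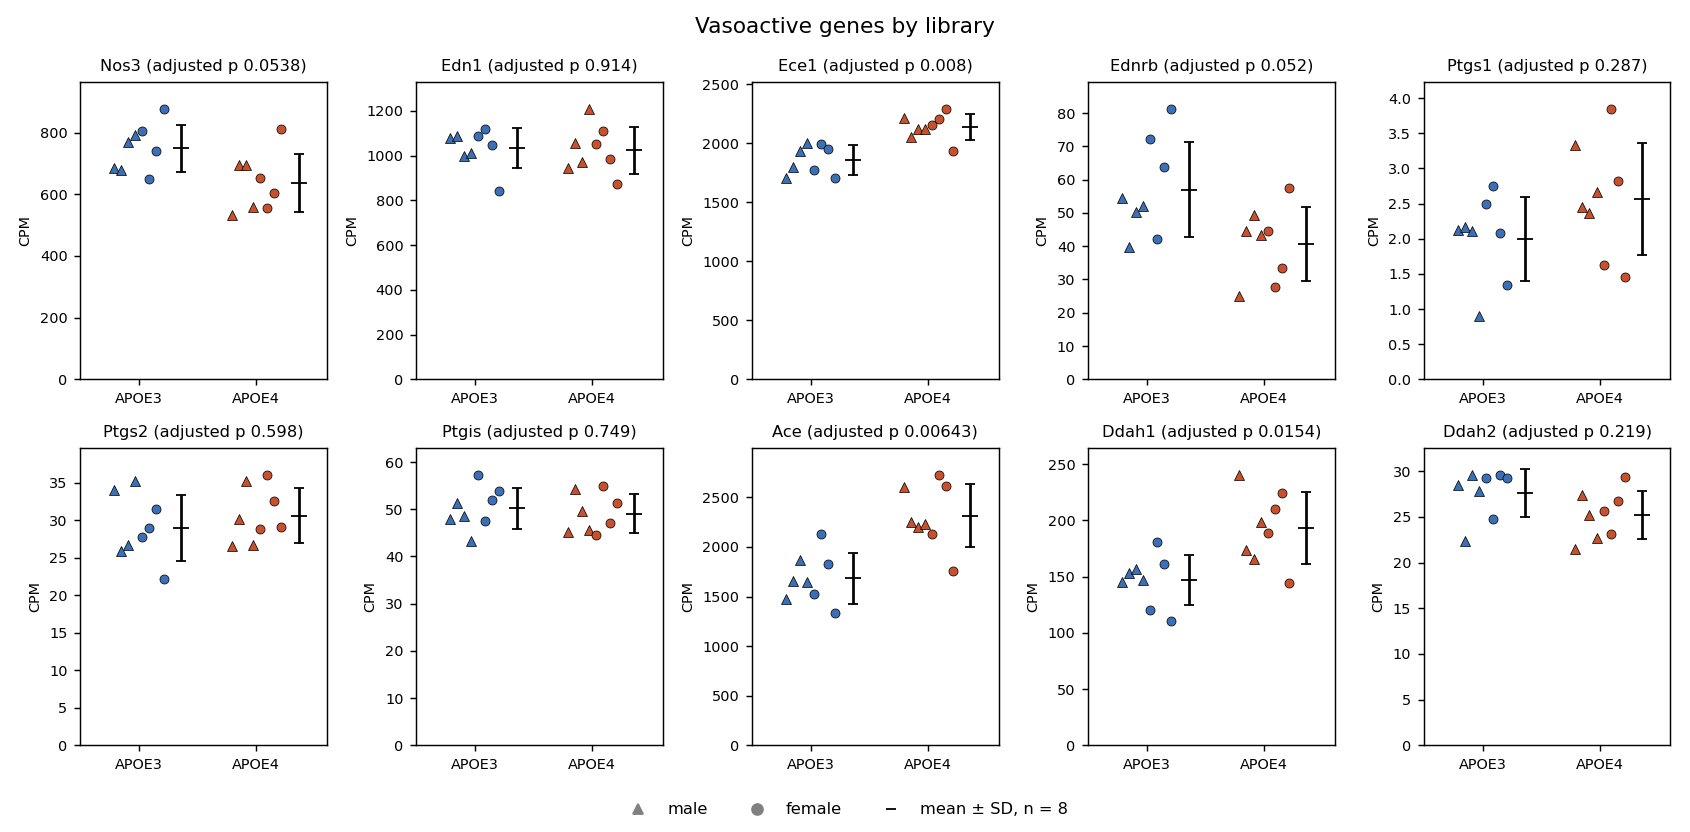
CPM (y axis, from 0) of each of the 10 genes in the 16 libraries by genotype, with males as triangles, females as circles and the mean ± SD of 8 libraries beside them. The *APOE4* points of Ece1, Ace and Ddah1 sit above most *APOE3* points, those of Nos3 and Ednrb sit lower with overlap, and the points of Edn1, Ptgs2 and Ptgis fall in the same range in both genotypes.

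The sequences upstream of the 3 genes that were higher with *APOE4* are given because these genes also varied together from library to library (below). RefSeq promoter windows were held for 8 of the 10 genes, with no entry for Nos3 or Ptgis. Each run is on the plus strand of GRCm38.p6, reads 5′ to 3′ and ends at the last base before the gene's first annotated exon, and capitals mark matches to the motifs searched. The first runs from chr4:137861987-137862236, upstream of the first of 4 Ece1 starts, the second from chr11:105967698-105967944, upstream of the first of 2 Ace starts, and the third from chr3:145758442-145758674, upstream of Ddah1.
Ece1: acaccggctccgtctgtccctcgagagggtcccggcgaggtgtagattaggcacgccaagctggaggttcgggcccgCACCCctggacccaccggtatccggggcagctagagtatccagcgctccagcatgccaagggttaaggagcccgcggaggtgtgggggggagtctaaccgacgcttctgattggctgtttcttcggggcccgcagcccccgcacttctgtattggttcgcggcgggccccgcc
Ace: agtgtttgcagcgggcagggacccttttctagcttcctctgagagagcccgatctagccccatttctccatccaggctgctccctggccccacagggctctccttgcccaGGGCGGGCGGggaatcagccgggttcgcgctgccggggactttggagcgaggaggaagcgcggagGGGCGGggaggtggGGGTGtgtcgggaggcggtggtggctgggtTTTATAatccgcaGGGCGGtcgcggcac
Ddah1: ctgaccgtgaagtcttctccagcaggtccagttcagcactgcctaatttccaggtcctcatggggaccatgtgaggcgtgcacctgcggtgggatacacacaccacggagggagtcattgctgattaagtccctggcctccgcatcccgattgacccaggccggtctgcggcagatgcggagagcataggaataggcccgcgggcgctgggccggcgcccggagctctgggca

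Both strands were searched, and overlapping matches were each counted. The letters were GGGCGG for the GC box bound by SP factors, CACCC for the box bound by KLF factors and TGANTCA for AP-1 factors. The cyclic AMP response element was searched as TGACGTCA, the site of GATA factors as AGATAA and the TATA box as TATAAA, and ETS factors and the E-box were searched as CCGGAAG and CACGTG. In the 250 bases before the start, Ace held 4 matches to GGGCGG, 1 to CACCC and 1 to TATAAA. The window printed for Ece1 held 1 match to CACCC, and that of Ddah1 held none of the 8 motifs. The counts depend on the start taken. The other 3 Ece1 windows held 2, 0 and 1 matches to GGGCGG and 1, 2 and 0 to CACCC, with 1 E-box match, and the second Ace window held 1 match to CACCC and no other. Over the 32851 RefSeq windows of the same length, 32.7% held GGGCGG, 52.0% CACCC and 12.4% TATAAA, and no motif of this set was present in all 3 printed windows. A match is a description of these letters and not of a site in use.

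Levels of different genes were compared per length, as TPM, a length-scaled share of the library computed from merged exon length. Edn1, the precursor of endothelin-1, stood highest, with a median of 2065 TPM and a range of 1694 to 2367 TPM over the 16 libraries, above 99.7% of tested genes. Ece1 (median 1587 TPM, range 1381 to 1788) and Ace (median 1586 TPM, range 1089 to 2142) followed. Edn1 was above Ece1 in all 16 libraries although their ranges overlap. The order of Ece1 and Ace differed by genotype, with Ece1 the higher in 7 of 8 *APOE3* libraries (mean 1488 TPM against 1351 TPM for Ace) and in 2 of 8 *APOE4* libraries (mean 1685 TPM against 1828 TPM).

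Nos3 had a median of 707 TPM and did not overlap with Ace above it or with Ddah1 (median 174 TPM) below it. Ptgis, Ddah2 and Ednrb lay at medians of 80.9, 70.9 and 46.4 TPM, and the ranges of neighbours overlapped. Ptgs2 had a median of 26.8 TPM, and its range overlapped with that of Ednrb. Ptgs1 was the lowest at a median of 2.48 TPM, apart from all others, with 15 to 57 reads per library. Ordered by the longest annotated transcript in place of merged exons, the 10 genes kept the same ranks. The endothelin precursor, its converting enzyme and Ace were thus among the most abundant transcripts of these cells, and the cyclooxygenases were among the modest or rare ones.

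**Figure D2:**
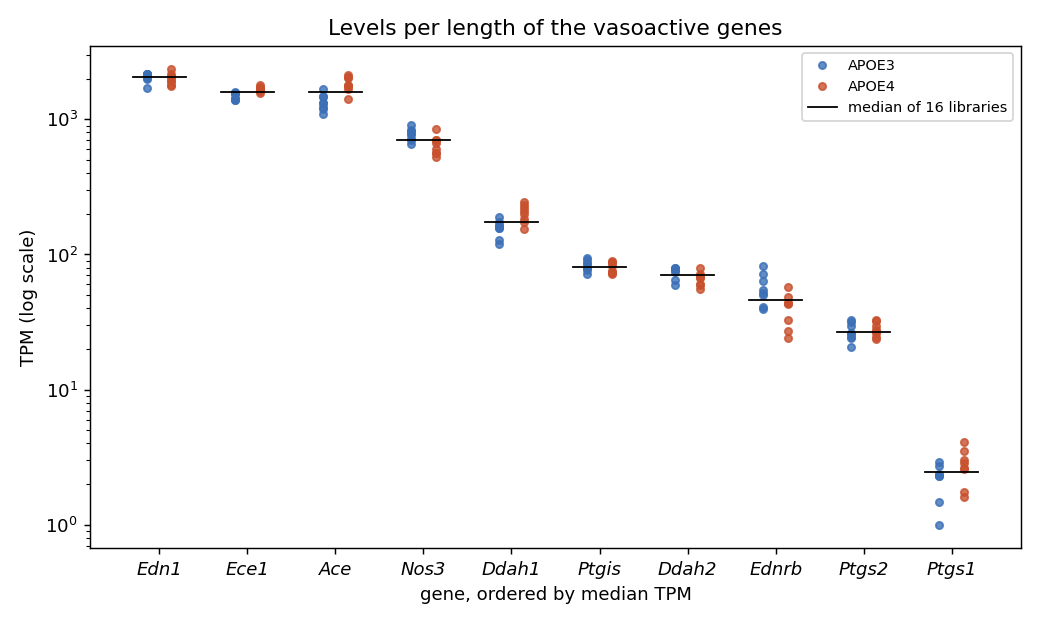
TPM (log scale) of the 10 genes in every library, ordered by median, with *APOE3* in blue, *APOE4* in red and the median of 16 libraries as a line. Edn1, Ece1 and Ace sit above 1000 TPM, and Ptgs1 stays below 5 TPM.

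Among the nitric oxide genes, Ddah1 was higher with *APOE4*, while Nos3 was nominally lower and fell just short of the threshold. Nos3 encodes endothelial nitric oxide synthase, the enzyme that gives endothelium its nitric oxide (ENSMUSG00000028978, chr5:24364810-24384474, plus strand). Its level ran from 649 over a median of 755 to 875 CPM in *APOE3* libraries. With *APOE4* it ran from 534 over a median of 628 to 811 CPM. Of the 8 *APOE4* libraries, 4 lay below every *APOE3* library, 7 of 8 lay below the *APOE3* median, and *APOE4* replicate 43, the highest of its group, lay above that median. The means were 749.8 ± 76.1 and 638 ± 94.0 CPM (SD, n = 8), a log2 fold change of -0.23 (SE 0.08, 95% interval -0.40 to -0.07, adjusted p = 0.0538 by edgeR). Nos3 was called in 2 of 10 alternatives that kept all libraries, with an adjusted p of 0.0292 by DESeq2 and 0.0369 by limma voom with quality weights. Among the 16 edgeR fits without 1 library it was called in 3. The adjusted p was 0.0282 without *APOE3* replicate 31, 0.0460 without *APOE4* replicate 36 and 0.0108 without *APOE4* replicate 43. It reached 0.118 without *APOE3* replicate 33. With all libraries edgeR gave 0.104 with GC content and length corrected, and 0.137 with a pericyte, smooth muscle and fibroblast score as covariate.

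Nos3 exons overlap Gm15587 and Atg9b on the opposite strand, and 20.0% of its stretches of 50 bases occur in those genes. The overlaps with each gene add up to 1334 bases, in which a base covered by both genes counts for each. The strand setting of the read counting is not given in the sources used here. Atg9b, an autophagy gene, had 4 to 18 reads per library against 6717 to 13148 for Nos3.

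Ddah1 encodes an enzyme that breaks down asymmetric dimethylarginine, an inhibitor of nitric oxide synthases (ENSMUSG00000028194, chr3:145758675-145894277, plus strand). It ranged from 110 over a median of 150.1 to 180 CPM in *APOE3* libraries and from 145 over a median of 194 to 240.2 CPM in *APOE4* libraries. Of the 8 *APOE4* libraries, 5 exceeded every *APOE3* library and 7 of 8 exceeded the *APOE3* median, the exception being *APOE4* replicate 43. Mean levels were 146.9 ± 22.4 and 193.4 ± 31.7 CPM (SD, n = 8), 1.32-fold higher with *APOE4* (interval 1.14 to 1.52, log2 fold change 0.40, SE 0.10, adjusted p = 0.0154 by edgeR).

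Ddah2, the second enzyme of the same kind (ENSMUSG00000007039, chr17:35059035-35062095, plus strand), lay much lower. It ranged from 22.4 over a median of 28.9 to 29.6 CPM in *APOE3* libraries and from 21.5 over a median of 25.4 to 29.4 CPM in *APOE4* libraries, with 7 of 8 *APOE4* libraries below the *APOE3* median but only 1 below every *APOE3* library. The log2 fold change was -0.13 (SE 0.07, interval -0.28 to 0.01, adjusted p = 0.219). The 2 enzymes thus had estimates of opposite sign, of which that of Ddah1 passed the test.

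In the endothelin pathway the ligand gene had a log2 fold change near 0, the converting enzyme was higher, and the receptor was nominally lower. Edn1 (ENSMUSG00000021367, chr13:42301476-42307990, plus strand) ran from 841 over a median of 1065 to 1118 CPM with *APOE3* and from 874 over a median of 1018 to 1207 CPM with *APOE4*. The groups overlapped nearly throughout, and *APOE3* replicate 33 was apart from the other *APOE3* libraries as the lowest. Mean Edn1 was 1034 ± 87.7 and 1025 ± 105 CPM (SD, n = 8), a log2 fold change of -0.01 (SE 0.06, interval -0.14 to 0.11, adjusted p = 0.914).

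Ece1 encodes endothelin-converting enzyme 1, a membrane protease that releases endothelin-1 from its precursor (ENSMUSG00000057530, chr4:137862237-137965229, plus strand). In *APOE3* libraries it ran from 1704 over a median of 1864 to 2002 CPM, and in *APOE4* libraries from 1934 over a median of 2135 to 2287 CPM. In 7 of 8 *APOE4* libraries the level lay above all *APOE3* libraries, and the remaining one, replicate 43, still lay above the *APOE3* median. The means of 1856 ± 125 and 2135 ± 108 CPM (SD, n = 8) gave a 1.15-fold higher level with *APOE4* (interval 1.08 to 1.22, log2 fold change 0.20, SE 0.04, adjusted p = 0.00800 by edgeR). The spread among replicates was narrow, with the highest library 1.18 times the lowest within each genotype, so a small difference stood out.

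Ednrb, the endothelin B receptor, which on endothelium couples endothelin to nitric oxide release and clears the peptide (ENSMUSG00000022122, chr14:103814625-103844402, minus strand), varied most among the well-counted genes. It ran from 39.8 over a median of 53.3 to 81.1 CPM with *APOE3*. With *APOE4* it ran from 25.1 over a median of 44.0 to 57.6 CPM. The *APOE4* replicates 35, 40 and 41 lay below every *APOE3* library, whereas *APOE4* replicate 43 lay above the *APOE3* median. Means were 57.0 ± 14.4 and 40.7 ± 11.1 CPM (SD, n = 8), a log2 fold change of -0.48 (SE 0.16, interval -0.82 to -0.15, adjusted p = 0.0520). Of the 16 edgeR fits without 1 library, 4 called Ednrb. The adjusted p was 0.0406 without *APOE3* replicate 26, 0.0282 without *APOE3* replicate 31, 0.0496 without *APOE4* replicate 37 and 0.0224 without *APOE4* replicate 43. In the remaining fits it was not called, with an adjusted p of up to 0.118, without *APOE3* replicate 33. Ednrb was called in 5 of 10 alternatives that kept all libraries, among them limma voom with quality weights (adjusted p = 0.0486). DESeq2 did not call it, with an adjusted p of 0.0585.

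None of the 3 prostanoid genes passed the test by edgeR, nor by DESeq2 or limma, and 0 had an unadjusted p under 0.05. Ptgs1 and Ptgs2 encode cyclooxygenases 1 and 2, which turn arachidonic acid into prostaglandin H2, the first constitutive and the second inducible, and Ptgis encodes prostacyclin synthase. Ptgs2 (ENSMUSG00000032487, chr1:150100031-150108227, plus strand) ran from 22.1 over a median of 28.3 to 35.3 CPM with *APOE3* and from 26.5 over a median of 29.6 to 36.0 CPM with *APOE4*, in overlapping groups. Its log2 fold change was 0.08 (SE 0.09, interval -0.10 to 0.26, adjusted p = 0.598).

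Ptgis (ENSMUSG00000017969, chr2:167191805-167240604, minus strand) ran from 43.2 over a median of 49.99 to 57.2 CPM with *APOE3* and from 44.5 over a median of 48.4 to 54.9 CPM with *APOE4*, all within the *APOE3* range. The log2 fold change of -0.03 had an interval of -0.15 to 0.09 (SE 0.06, adjusted p = 0.749). Ptgs1 (ENSMUSG00000047250, chr2:36230426-36252272, plus strand) was counted at 15 to 57 reads per library, and ran from 0.905 over a median of 2.11 to 2.75 CPM with *APOE3* and from 1.46 over a median of 2.55 to 3.84 CPM with *APOE4*. The *APOE4* replicates 35, 40 and 41 lay above every *APOE3* library, but the interval was wide at this depth (log2 fold change 0.36, SE 0.22, interval -0.09 to 0.82, adjusted p = 0.287).

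Ace, the peptidyl-dipeptidase that makes angiotensin II and inactivates bradykinin (ENSMUSG00000020681, chr11:105967945-105989964, plus strand), had the largest difference of the called genes. It ran from 1337 over a median of 1648 to 2133 CPM in *APOE3* libraries. In *APOE4* libraries it ran from 1758 over a median of 2240 to 2723 CPM. In 6 of 8 *APOE4* libraries the level lay above every *APOE3* library, and all 8 lay above the *APOE3* median. The groups overlapped through *APOE4* replicates 39 and 43, which lay below *APOE3* replicate 31, the highest of its group. Means were 1683 ± 253.5 and 2314 ± 318 CPM (SD, n = 8), 1.38-fold higher with *APOE4* (interval 1.21 to 1.57, log2 fold change 0.46, SE 0.09, adjusted p = 0.00643 by edgeR). By p-value it was number 96 of the 12481 genes. Its exons share 295 bases with Gm11651, and 3.77% of its stretches of 50 bases occur there, whereas Ddah1 overlaps no other gene.

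The study's cultures came from both sexes, so the genotype difference was also taken within each. In 1 edgeR fit of 4 groups, 0 of the 10 genes were called within males (0 of all genes, 0%), with Ece1, Ace and Ddah1 under an unadjusted p of 0.05 among 1775 genes. Within females 0 were also called (0 of all genes, 0%), with Ece1, Ednrb, Ace and Ddah1 under an unadjusted p of 0.05 among 2428 genes. DESeq2 called 0 of the 10 in males and Ece1 and Ace in females, of 34 and 418 genes in all. Leaving out *APOE3* replicate 31, a female, brought the edgeR count in females to 4, Ece1, Ednrb, Ace and Ddah1.

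The genotype by sex interaction was called for 0 genes (0%) by edgeR and by DESeq2, with 345 and 308 at an unadjusted p under 0.05, and for the 10 genes its unadjusted p ran from 0.197 to 0.949. Ace had log2 fold changes of 0.48 in males and 0.44 in females, Ddah1 of 0.37 and 0.43, and Ece1 of 0.19 and 0.21. Nos3 had log2 fold changes of -0.24 and -0.23. The sexes were furthest apart for Ednrb, at a log2 fold change of -0.27 (interval -0.73 to 0.20) in males and -0.67 (interval -1.13 to -0.21) in females, and the difference between them, -0.40, had an interval of -1.05 to 0.25. Between females and males over both genotypes edgeR called 9 genes (0.0721%), 0 of them among the 10, whose unadjusted p ran from 0.163 to 0.937.

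**Figure D3:**
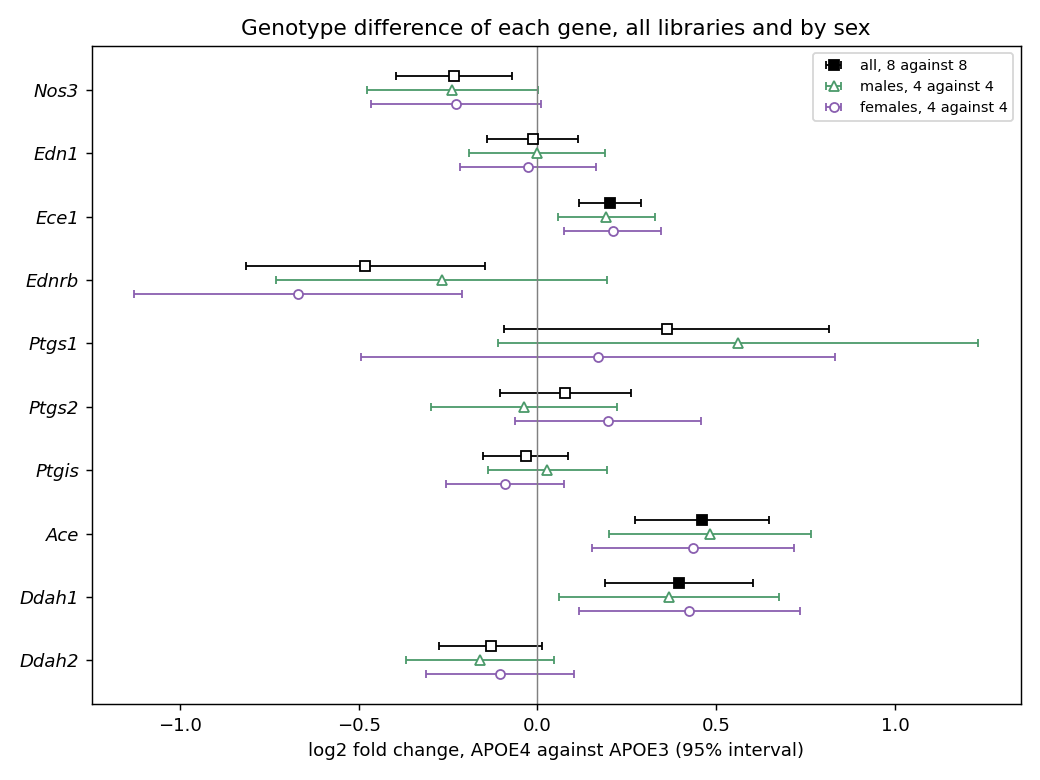
Log2 fold change of *APOE4* against *APOE3* (x axis) of each gene with its 95% interval, over all libraries (black squares), males (green triangles) and females (purple circles). Filled symbols have an adjusted p under 0.05, which only the squares of Ece1, Ace and Ddah1 do, and the male and female intervals of every gene overlap.

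Some of these genes varied together between libraries of a genotype. After the genotype means were taken off, Pearson's r of log2 CPM over the 16 libraries was 0.89 for Ace with Ddah1, 0.86 for Ace with Ece1 and 0.79 for Ece1 with Ddah1. In a second set, r was 0.84 for Nos3 with Ednrb, 0.79 for Nos3 with Ddah2 and 0.74 for Ednrb with Ddah2. Between these sets of 3 all pairs were negative, from -0.87 for Nos3 with Ddah1 to -0.30 for Ece1 with Ddah2, with -0.50 for Ece1 with Nos3 and -0.48 for Ace with Ddah2. Outside these sets, Ptgs1 had an r of -0.71 with Nos3 and 0.66 with Ace, and Edn1 of -0.64 with Nos3. Ptgs2 had an r of at most 0.35 in size with any of the other genes, and Ptgis of at most 0.50. These values describe the same 16 libraries, which share their depth and makeup, and carry no test.

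*APOE4* replicate 43 was the lowest *APOE4* library at Ece1, Ace, Ddah1, Edn1 and Ptgs1 and the highest at Nos3, Ednrb and Ddah2. *APOE3* replicate 31 was the highest *APOE3* library at Ace, Ddah1, Edn1 and Ptgs1 and the lowest at Nos3. *APOE3* replicate 33 stood at the opposite end, lowest at Ece1, Ace, Ddah1, Edn1 and Ptgs2 and highest at Nos3 and Ednrb. Thus *APOE4* replicate 43 and *APOE3* replicate 31 lay toward the other genotype at several of these genes at once. By contrast, *APOE3* replicate 33 lay away from the other genotype at Ece1, Ace, Ddah1, Nos3 and Ednrb.

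**Figure D4:**
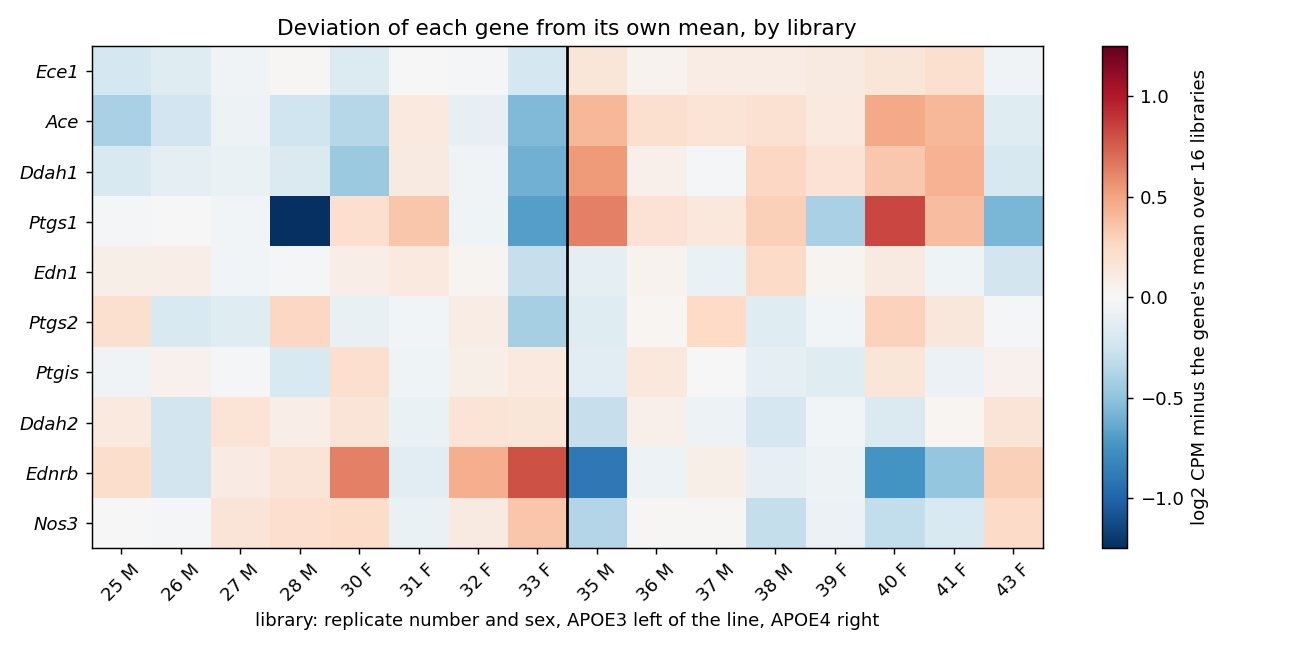
Log2 CPM of each gene minus its own mean over 16 libraries (colour, red above and blue below), with *APOE3* libraries left of the line and *APOE4* right. In replicates 35, 40 and 41 Ace and Ddah1 are above and Nos3 and Ednrb below their means, and replicates 30 and 33 have the reverse.

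Cell cycle genes moved with the same contrast. Of 25 cell cycle genes, 23 were higher with *APOE4* and 0 lower. Their median log2 fold change was 0.65, and the cell cycle score, their mean log2 CPM per library, was 5.65 ± 0.36 with *APOE3* and 6.26 ± 0.28 with *APOE4* (SD, n = 8), with ranges of 5.15 to 6.23 and 5.93 to 6.74. Within genotypes the score had an r of 0.92 with Ddah1, 0.81 with Ace and 0.75 with Ece1. Its r was -0.76 with Ednrb and -0.72 with Nos3, and between -0.61 and 0.43 with the other 5 genes.

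With this score as a covariate in edgeR, 0 of the 10 genes and 0 of all genes were called, with 897 of all genes at an unadjusted p under 0.05. The log2 fold changes became 0.14 for Ace (adjusted p = 0.731), 0.08 for Ece1 (adjusted p = 0.732), -0.01 for Ddah1 (adjusted p = 0.977), 0.01 for Nos3 (adjusted p = 0.987) and 0.07 for Ednrb (adjusted p = 0.942). Genotype and score moved together in these cultures, and the part of proliferation in the genotype differences was not tested beyond this fit. With a score of pericyte, smooth muscle and fibroblast markers as the covariate, Ace (0.45, adjusted p = 0.0175), Ece1 (0.20, adjusted p = 0.0195) and Ddah1 (0.37, adjusted p = 0.0394) were still called, the values being log2 fold changes. In that fit Nos3 was at -0.20 (adjusted p = 0.137) and Ednrb at -0.41 (adjusted p = 0.136). Of all genes it called 883, against 1597 without a covariate.

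The genes whose library pattern was most like that of each called gene were taken by the same within-genotype r. For Ace they were Fn1, which encodes fibronectin (r = 0.95), Gpx7, a glutathione peroxidase family member (r = 0.94), and Limd2 (r = 0.94). For Ddah1 they were Rnd1 (r = 0.96), Ston1 (r = 0.96) and Nid1, the basement membrane protein nidogen 1 (r = 0.96). For Ece1 they were 4930402H24Rik (r = 0.89), Col4a2, a chain of basement membrane collagen IV (r = 0.89), and Aes (r = 0.89). All but Aes (adjusted p = 0.205) were themselves higher with *APOE4*, with log2 fold changes of 0.13 for Col4a2 to 0.49 for Ston1.

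Around the 10 genes, 7 lists of related genes held 119 further genes, of which 78 were tested and 17 called, 8 higher and 9 lower. This is 21.8% of those tested against 12.8% of all genes, and their median log2 fold change was -0.00. The count was 8 to 21 when single libraries were left out, lowest without *APOE3* replicate 33 or *APOE4* replicate 41, and 0 when the fit took the cell cycle score as covariate.

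In the nitric oxide list, 2 of 23 further tested genes were higher and 1 lower. Pde5a, the phosphodiesterase that degrades cyclic GMP, had 18.0 ± 1.44 CPM with *APOE3* and 21.1 ± 1.62 CPM with *APOE4* (log2 fold change 0.23, adjusted p = 0.0188). Nos2, the inducible synthase, had 66.4 ± 10.6 and 53.4 ± 8.92 CPM (log2 fold change -0.31, adjusted p = 0.0414). Nos1, the neuronal synthase, was called higher from only 6 to 31 reads per library (0.670 ± 0.245 and 1.15 ± 0.368 CPM, log2 fold change 0.78, adjusted p = 0.0447). The soluble guanylate cyclase subunits that receive nitric oxide, Gucy1a1 and Gucy1b1, were at most 9 and 16 reads in a library and were not tested.

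For endothelin, 1 of 4 further tested genes was lower, Furin, a protease that processes the endothelin precursor (393 ± 17.4 and 362 ± 19.4 CPM, log2 fold change -0.12, adjusted p = 0.0402). The endothelin A receptor gene Ednra, the receptor of smooth muscle, was at most 11 reads per library, and Edn2 was at 0 in all 16.

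Of 12 further prostanoid genes tested, 1 was higher and 1 lower. Pla2g4a, the phospholipase that frees arachidonic acid, had 12.7 ± 2.06 CPM with *APOE3* and 17.0 ± 1.86 CPM with *APOE4* (log2 fold change 0.41, adjusted p = 0.00986). Abcc4, an efflux transporter of prostaglandins, had 769 ± 78.7 and 612 ± 66.9 CPM (log2 fold change -0.33, adjusted p = 0.00802). The prostacyclin receptor gene Ptgir was at most 6 reads and the thromboxane synthase gene Tbxas1 at most 3 reads per library.

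The angiotensin and kinin list had 3 of 8 further tested genes higher and 0 lower. These were Agtrap, an angiotensin receptor-associated protein (log2 fold change 0.22, adjusted p = 0.0391), Rnpep, an aminopeptidase (0.22, adjusted p = 0.0438), and Cpm, a membrane carboxypeptidase (0.36, adjusted p = 0.0455). The genes that would supply or answer angiotensin II were absent or nearly so. Ren1 and Agtr2 were at 0 reads in every library, and Agt, Agtr1a and Agtr1b at most 4, 2 and 5 reads. The bradykinin B2 receptor gene Bdkrb2 had a log2 fold change of -0.26 (interval -0.49 to -0.03, adjusted p = 0.128 by edgeR).

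Of 15 other vasoactive peptide and purine genes, 1 was higher and 4 lower. The lower genes were natriuretic peptide receptors and adrenomedullin co-receptors, with log2 fold changes of -0.55 for Npr3 (adjusted p = 0.0120), -0.16 for Npr1 (adjusted p = 0.0148), -0.44 for Ramp3 (adjusted p = 0.0345) and -0.20 for Ramp2 (adjusted p = 0.0209). P2ry1, an ADP receptor, was higher (log2 fold change 0.52, adjusted p = 0.0419). Among 10 channel and connexin genes Gja5, which encodes connexin 40, was higher at 15.8 ± 3.45 and 23.9 ± 3.72 CPM (log2 fold change 0.60, adjusted p = 0.00715). Of 6 shear-responsive factors, 2 were lower, Klf4 (log2 fold change -0.39, adjusted p = 0.0135) and Mef2d (log2 fold change -0.13, adjusted p = 0.0245), while Klf2, a factor known to raise Nos3 under flow, had a log2 fold change of -0.29 (interval -0.50 to -0.08, adjusted p = 0.0657).

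**Figure D5:**
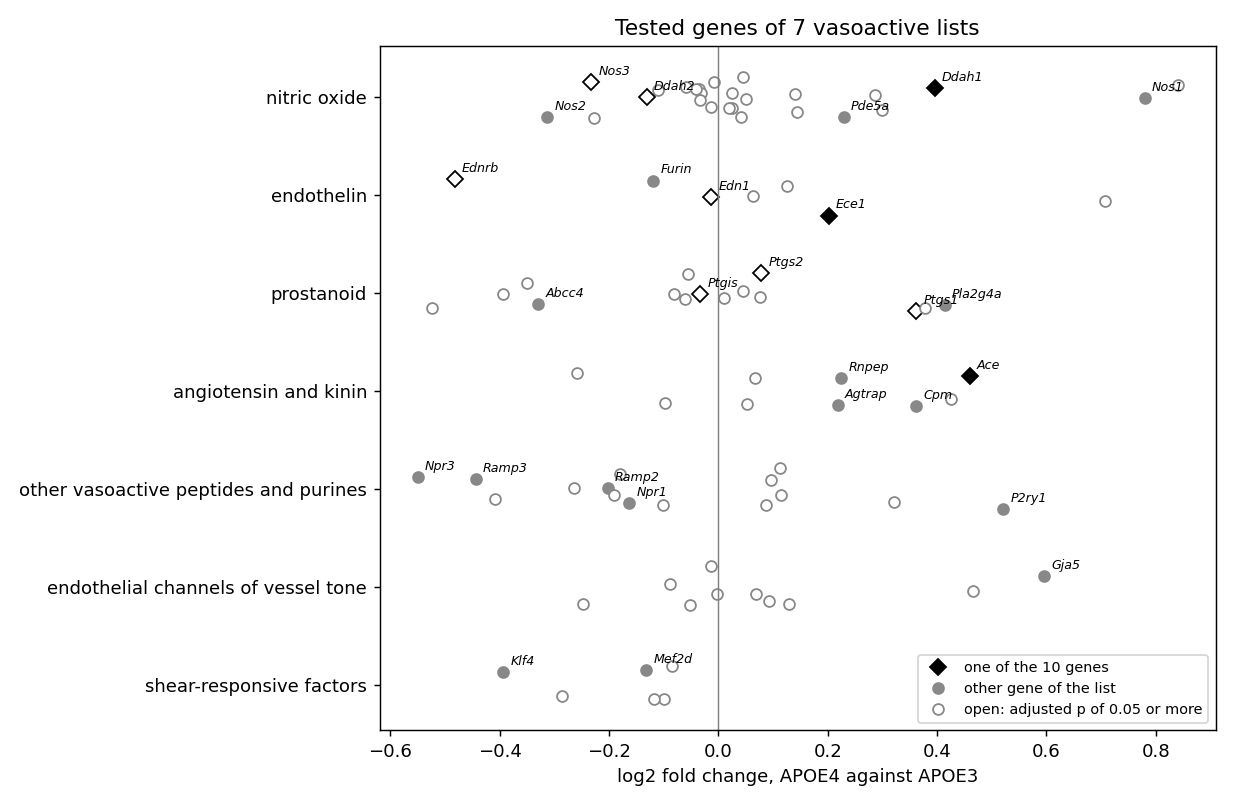
Log2 fold change of *APOE4* against *APOE3* (x axis) of the tested genes of 7 lists (rows), with the 10 genes as black diamonds, other genes as grey circles and open symbols for an adjusted p of 0.05 or more. Called genes lie on both sides of 0 in the nitric oxide, endothelin, prostanoid and peptide rows, and on the higher side in the angiotensin and kinin row.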

How the data were processed

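Reads were counted per gene by the authors, who deposited raw counts for 16 libraries without normalization. The submitters' processing notes name STAR, featureCounts and the builds mm10 and hg38, without versions, roles or the strand setting, and 38872 of the 39057 identifiers matched GENCODE vM21. All columns were mapped to a library by the labels, with 0 left unmapped. Groups were 8 *APOE3* and 8 *APOE4* libraries, each from a different animal, so p-values measure the spread between animals and cultures together. All *APOE3* libraries carry lower sample numbers than all *APOE4* libraries. A difference that followed this order could not be told apart from genotype.

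Counts were fitted in R 4.3.3 with edgeR 4.0.16 (filterByExpr by genotype, TMM, quasi-likelihood F test, Benjamini-Hochberg over 12481 genes, threshold 0.05). CPM used the tested genes' library size times the TMM factor, log2 CPM a prior count of 2, and the SE of a log2 fold change was derived from the F statistic. Effects by sex came from 1 fit of 4 groups of 4. Alternatives used DESeq2 1.42.0, limma 3.58.1, sva 3.50.0, other filters and covariates, and each library left out. Fits were tested on simulated data with 200 of 12481 genes changed. At log2 changes of 0.25, 0.5 and 1 the genotype fit recovered 70, 157 and 186 of the 200. The interaction fit recovered 0, 80 and 154, so the absence of interaction calls does not exclude interactions of any of these sizes. Figures were drawn with matplotlib 3.10.9 in Python 3.11.15. Reads carry no molecular identifiers, so depth covers counting error only.

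The genes and lists were chosen with earlier results of these data known. Genes named beside the 10 are those of each list with an adjusted p under 0.05, at most 6 per list by size of change, and the 3 genes nearest in library pattern to each called gene. Genes named at low or zero counts, and Mfsd2a, Klf2 and Bdkrb2, were chosen after their values were seen.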

Additional observations from a re-analysis of the deposited data

Results flagged for a closer look

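Within the genotype groups of 8 libraries and the genotype and sex groups of 4, the highest or lowest library was compared with its neighbour for each of the 10 genes, 60 groups in all, of which 4 had a library far from the others by Dixon's criterion. Chance alone flags about 1 group in 20. The lowest *APOE3* library at Edn1 was replicate 33, at 841 CPM. Among *APOE4* males replicate 35 was the highest at Ace, with 2605 CPM. Among *APOE3* females replicate 31 was the lowest at Ddah2, with 24.8 CPM. Among *APOE3* males replicate 28 was the lowest at Ptgs1, with 0.905 CPM, a level that rests on 15 reads.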

How the results depend on the processing

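Ece1, Ace and Ddah1 were called higher in all 16 fits that left out 1 library and in 9 of 10 other alternatives, the exception being the cell cycle score as a covariate. That covariate brought the called genes among the 10 to 0 and those of the related lists from 17 to 0, weakened Ece1 to a log2 fold change of 0.0794 and Ace to 0.14, and turned the sign for Nos3 (0.0111), Ednrb (0.0701), Ptgs1 (-0.0126), Ptgis (0.11) and Ddah1 (-0.0138), none of them called, and the cause was not tested. With the pericyte, smooth muscle and fibroblast score the list count was 8.

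Nos3 was called by DESeq2 (-0.23) and limma voom with quality weights (-0.23), and Ednrb with no filter on low counts (-0.48), a minimum of 10 counts in every library (-0.48), voom (-0.45), 1 surrogate variable (-0.49) and GC content and length corrected (-0.52). With voom 5 of the 10 genes were thus called. Leaving out single libraries gave 3 to 5 called genes, 5 without *APOE3* replicate 31 or *APOE4* replicate 43. Over those fits log2 fold changes ran from -0.29 to -0.20 for Nos3, called in 3, and from -0.57 to -0.39 for Ednrb, called in 4. They ran from -0.0515 to 0.0163 for Edn1, with the sign turning without *APOE3* replicate 31 or *APOE4* replicates 35 or 43. The list count ran from 8 to 21, at 8 without *APOE3* replicate 33 or *APOE4* replicate 41, 9 without *APOE4* replicate 35, 10 without *APOE3* replicate 30 or *APOE4* replicate 40 and 11 without *APOE3* replicate 28. Within females 2 genes were called by DESeq2, and 0 to 4 without single libraries, 4 without *APOE3* replicate 31. No call was made within males or for the interaction under any alternative run.

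Depth limits Ptgs1 and Nos1, with at most 57 and 31 reads per library. No paired analysis was possible because the labels give every sample its own number.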
